A study of Mus musculus with 16 samples.

Results

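Mammary adipose tissue of mice that had lost weight on a low-fat diet (DIO-LFD) was compared with that of mice kept obese on a high-fat diet (DIO-HFD). The comparison held the 4 libraries titled as diet weight loss and the 4 titled as obese, 8 of the 16 RNA-Seq libraries of the series, and all genes of the table entered it without selection. Both groups were wild-type female C57BL/6N mice made obese on the diet with 60% of its energy as fat, and both had a sham operation. DIO-HFD mice then stayed on that diet, whereas DIO-LFD mice had free access to the low-fat diet. Cells of E0771, a mouse mammary cancer line, were injected into a mammary fat pad 22 weeks after the mice were first assigned to diets, and the tissue profiled was the fat pad of the opposite side, taken when tumors had grown. The remaining 8 libraries, from lean controls on the low-fat diet (CON-LFD) and from obese mice after vertical sleeve gastrectomy with the low-fat diet (DIO-VSG), entered the fit only to share the estimate of the spread, except where they are named.

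White adipose tissue stores fatty acids as triglyceride, taking them from the blood or building them from glucose. When carbohydrate is plentiful, insulin and the factors SREBP-1c (gene Srebf1) and ChREBP (gene Mlxipl) switch on the enzymes of fatty acid synthesis, and a diet rich in fat keeps those enzymes low. In the mammary fat pad, adipocytes surround the epithelial ducts and a lymph node, so a piece of this tissue can also hold epithelial, lymphoid, muscle and skin cells.

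Values are normalized counts, that is, reads divided by the size factor of the library, and differences are DIO-LFD minus DIO-HFD on the log2(normalized count + 1) scale. Benjamini-Hochberg adjustment in limma left 0 of the 21218 genes tested (0%) with an adjusted P below 0.05, and the smallest adjusted P was 0.296. limma-voom on the recovered reads also gave 0 genes. Weighting each library by how closely it followed its own group gave 1811. Those weights were estimated from the same values, so the 1811 are not separate support. Without adjustment, 1809 genes (8.53%) had a limma P below 0.05, with 1139 (5.37%) above and 670 (3.16%) below the obese mice. Predicted genes and pseudogenes made up 360 of the 1809. The 4 values of DIO-LFD all lay above the 4 of DIO-HFD for 638 genes (3.01%) and all below for 318 (1.5%). The split between directions moved with the scaling: 63% of the unadjusted genes were higher in DIO-LFD with the size factors of the authors, 51.2% after quantile normalization and 55.0% after upper quartile normalization. It also moved with single libraries, to 50.4% without DIO-HFD replicate 1 and 73.7% without DIO-HFD replicate 3. The shares over all genes are the background against which the gene lists below are read.

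The 8 libraries held between 46907377 and 57610899 reads. The labels give the tissue as normal mammary tissue and the cells as a mammary cancer line, and the adipocyte markers were abundant: adiponectin (Adipoq) was at 30428 to 100490 normalized counts and the fatty acid binding protein Fabp4 at 187260 to 724050. Several libraries stood apart. The summed B cell markers were at 321500, 29720, 28920 and 183500 in DIO-HFD replicates 1 to 4 and at 68260, 102100, 107300 and 114500 in DIO-LFD, and T cell and lymph node stroma markers were likewise highest in DIO-HFD replicates 1 and 4. DIO-HFD replicate 1 also held the least adipocyte RNA, with 837000 summed counts over 20 markers against 1689000 to 2806000 in the other 7 libraries. Skeletal muscle markers reached 219500 in DIO-LFD replicate 4 against at most 7415 elsewhere, and erythroid markers reached 464100 in DIO-LFD replicate 1 against at most 52780. Keratinocyte markers were at 16280 in DIO-HFD replicate 4 and at most 2268 elsewhere. The part of these cells in the results was not tested, and counts that rest on such a library are given without it as well. In bulk tissue fewer cells of a type cannot be told apart from less RNA per cell.

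**Figure D1:**
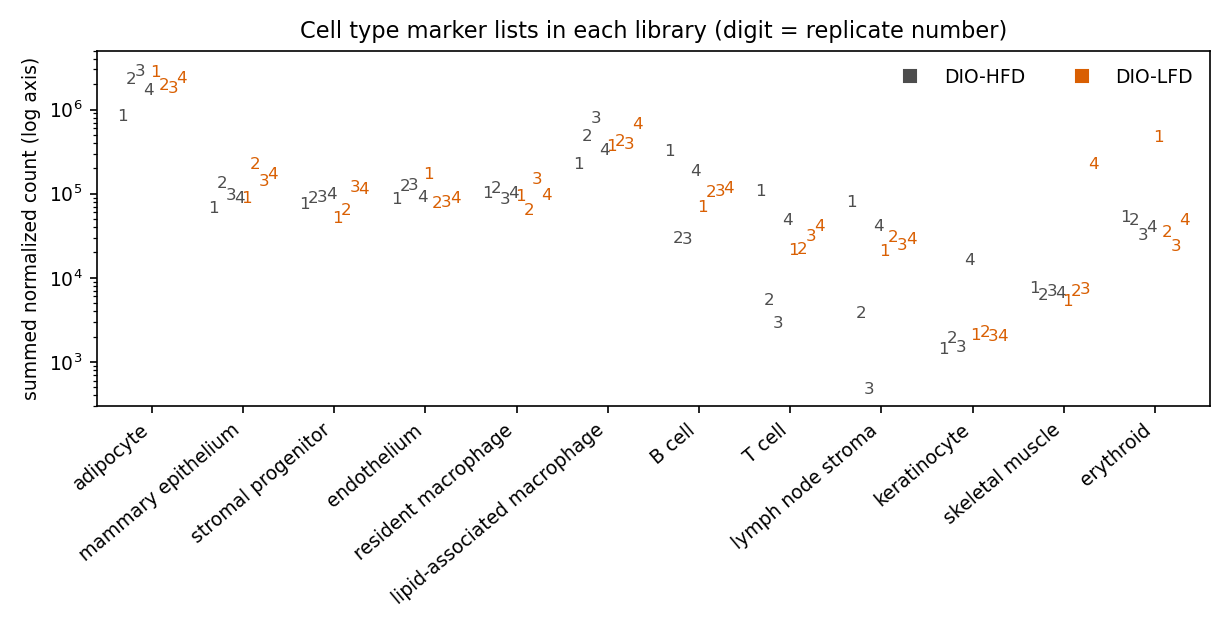
Summed normalized counts of cell type marker lists (log axis) in each of the 8 libraries, with the digit giving the replicate number and the color the group. B cell, T cell and lymph node stroma markers are highest in DIO-HFD replicates 1 and 4, skeletal muscle in DIO-LFD replicate 4 and erythroid markers in DIO-LFD replicate 1.

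Genes of fatty acid synthesis and NADPH supply stood highest among the metabolic lists. All 15 tested members were higher in DIO-LFD, with a median log2 difference of 1.83 against 0.01 over all genes, and 11 of the 15 had an unadjusted limma P below 0.05, against the 5.37% background. Their summed count was 74000, 133400, 157200 and 106300 in DIO-HFD and 188500, 1190000, 583900 and 1212000 in DIO-LFD, so the groups did not overlap, and DIO-LFD replicate 1 was far below the other 3 of its group. The count of 11 stayed between 9 and 11 when any 1 library was left out.

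Acaca, which encodes acetyl-CoA carboxylase 1, the enzyme that commits acetyl-CoA to fatty acid synthesis, lies at chr11:84129672-84401651 (GRCm38, plus strand, protein coding). Its normalized count was 4712, 11640, 9778 and 8210 in DIO-HFD and 33002, 128800, 63859 and 116120 in DIO-LFD. Every DIO-LFD library was above every DIO-HFD library, and the log2 difference was 3.20 (SE 0.59, 95% interval 1.94 to 4.46, limma adjusted P = 0.296). Acacb, which encodes the mitochondrial acetyl-CoA carboxylase, was at 2188, 3664, 3373 and 4425 in DIO-HFD and at 35103, 31239, 7503 and 9539 in DIO-LFD (log2 difference 2.34, SE 0.67). These groups did not overlap either, but here replicates 1 and 2 were the high DIO-LFD libraries. Fasn, which encodes fatty acid synthase, was at 10120, 23536, 35461 and 20232 in DIO-HFD and at 21753, 694000, 310260 and 685100 in DIO-LFD (log2 difference 3.55, SE 1.02, limma unadjusted P = 0.00355). For Fasn the groups overlapped, since DIO-LFD replicate 1 stayed at the level of the obese mice while the other 3 libraries were far above it.

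The same division between DIO-LFD replicate 1 and the other 3 libraries appeared in the enzymes that supply acetyl-CoA. Acly, which encodes ATP citrate lyase, was at 8445 to 10376 in DIO-HFD and at 10878, 64272, 44559 and 89157 in DIO-LFD. Slc25a1, which carries citrate out of mitochondria, was at 2239 to 6260 in DIO-HFD and at 4301, 25094, 11024 and 25285 in DIO-LFD. Acss2, which makes acetyl-CoA from acetate, was at 1343 to 1889 in DIO-HFD and at 2153, 13137, 7135 and 22058 in DIO-LFD. Their log2 differences were 2.11 (SE 0.68), 1.74 (SE 0.58) and 2.31 (SE 0.67). Aacs, which activates acetoacetate for lipid synthesis, did not follow that division: it was at 1767 to 4016 in DIO-HFD and at 7416, 12378, 5161 and 8780 in DIO-LFD (log2 difference 1.71, SE 0.37, limma unadjusted P = 0.000409). Thrsp, which encodes the lipogenic protein Spot 14, was at 1228 to 5864 in DIO-HFD and at 2470, 41210, 12506 and 32407 in DIO-LFD (log2 difference 2.47, SE 0.79).

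Genes that supply NADPH were less uniform. Malic enzyme, Me1, was at 3965 to 16489 in DIO-HFD and at 11240, 55160, 26201 and 75012 in DIO-LFD (log2 difference 1.89, SE 0.68), and transketolase, Tkt, was at 9247 to 15066 and at 13977, 81315, 46026 and 76213 (log2 difference 1.83, SE 0.55). Their groups overlapped only through DIO-LFD replicate 1. The oxidative pentose phosphate enzymes were closer to the obese level, with a log2 difference of 0.77 (SE 0.35) for Pgd, 0.35 (SE 0.36) for G6pdx and 0.15 (SE 0.09) for Pgls. Of these only Pgd had an unadjusted limma P below 0.05 (0.0469), and cytosolic isocitrate dehydrogenase, Idh1, had a P of 0.541.

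**Figure D2:**
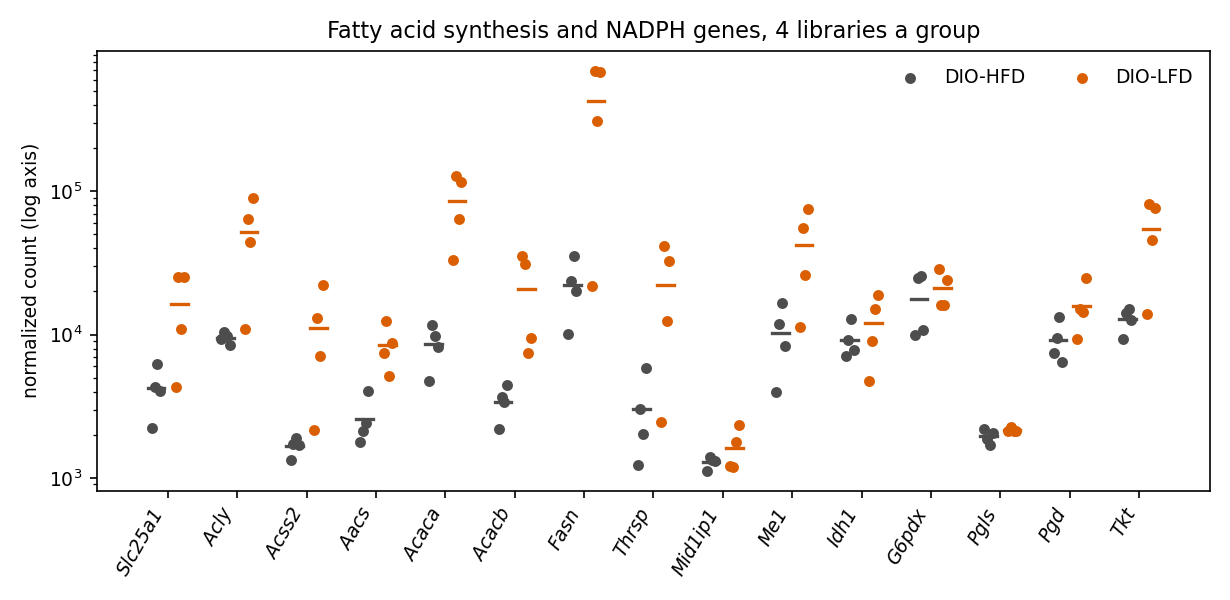
Normalized count (log axis) of the 15 fatty acid synthesis and NADPH genes in the 4 DIO-HFD and 4 DIO-LFD libraries, 1 point per library. All 4 DIO-LFD points lie above all 4 DIO-HFD points for Acly, Acss2, Aacs, Acaca and Acacb, whereas for Fasn the lowest DIO-LFD library, at 21753, lies within the DIO-HFD range.

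Of the lipogenic regulators, 15 of 16 were higher in DIO-LFD, with a median log2 difference of 0.23, and 3 had an unadjusted limma P below 0.05, or 5 without CON-LFD replicate 2 or 3 or DIO-VSG replicate 2. Srebf1 (chr11:60199089-60222581, minus strand) was at 5739, 7626, 7174 and 8827 in DIO-HFD and at 11485, 18029, 14502 and 15033 in DIO-LFD (log2 difference 1.01, SE 0.19, 95% interval 0.59 to 1.42, limma adjusted P = 0.296). Its groups were well apart, and its values spread less within DIO-LFD than those of the enzymes. Mlxipl was at 1765, 3317, 3598 and 3754 in DIO-HFD and at 7675, 7549, 5141 and 4951 in DIO-LFD (log2 difference 1.06, SE 0.32), again without overlap. Nr1h3, which encodes the oxysterol receptor LXR alpha, had a log2 difference of 0.53 (SE 0.22), with 1 high library, DIO-LFD replicate 1 at 5794, and the other 3 at 2609 to 3110 against 1825 to 2729 in DIO-HFD.

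Enzymes that lengthen and desaturate fatty acids were mixed. Of 19 tested members 18 were higher in DIO-LFD, but only 3 had an unadjusted limma P below 0.05, and the median log2 difference was 0.33. The count was 7 without DIO-LFD replicate 1 and 5 without DIO-HFD replicate 3, and the median was 0.22 without DIO-HFD replicate 1 and 0.50 without DIO-HFD replicate 3. Elovl6, which elongates the product of fatty acid synthase, was at 832 to 2559 in DIO-HFD and at 1739, 44984, 11477 and 53138 in DIO-LFD (log2 difference 3.36, SE 1.11). Scd1, which encodes stearoyl-CoA desaturase 1, was at 451140, 999500, 1234100 and 807540 in DIO-HFD and at 311100, 2486900, 1333000 and 3768200 in DIO-LFD. The highest and the lowest of these 8 values were thus both in DIO-LFD, and the difference of 0.78 (SE 0.68) was within the spread between libraries. The acyl-CoA elongation enzyme Hsd17b12 (log2 difference 1.02, SE 0.28) and the desaturase family member Fads6 (0.58, SE 0.22) did not overlap between groups.

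Triglyceride synthesis genes were higher in 16 of 17 cases, 9 of them with an unadjusted limma P below 0.05, and the median log2 difference was 0.88. That median was 0.47 without DIO-HFD replicate 1 and 0.53 without DIO-LFD replicate 4. Gpd1, which makes the glycerol 3-phosphate backbone, was at 3360, 8577, 26531 and 16065 in DIO-HFD and at 59509, 58979, 31087 and 43719 in DIO-LFD (log2 difference 2.15, SE 0.59). Pck1, which encodes phosphoenolpyruvate carboxykinase, the rate-setting step of glyceroneogenesis, was at 38859 to 75756 in DIO-HFD and at 282880, 147780, 89388 and 98406 in DIO-LFD (log2 difference 1.37, SE 0.39). Both genes were separate between groups and highest in DIO-LFD replicate 1, the library with the lowest Fasn of its group. The acyltransferases Gpam (1.09, SE 0.28), Agpat9 (1.01, SE 0.36), Mogat1 (1.21, SE 0.27) and Dgat1 (1.08, SE 0.28) did not overlap between groups either, while Dgat2, which completes triglyceride, had a difference of 0.88 (SE 0.49, limma unadjusted P = 0.0944).

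Genes of lipid breakdown and of the lipid droplet were higher in 22 of 24 cases, 6 with an unadjusted limma P below 0.05 and 1 lower, and the 6 were 10 without DIO-HFD replicate 2. The lipases themselves overlapped between groups: Pnpla2, which encodes adipose triglyceride lipase, had a log2 difference of 0.70 (SE 0.34) and Lipe, which encodes hormone-sensitive lipase, 0.42 (SE 0.29). Pnpla3, a carbohydrate-responsive member of the lipase family, was at 921 to 5995 in DIO-HFD and at 3042, 10209, 8801 and 28037 in DIO-LFD (2.04, SE 0.67). The adrenergic receptor gene Adrb1 was at 193 to 449 and at 487 to 564 (0.82, SE 0.25), with the groups apart. The lower gene was Npr3, which encodes the natriuretic peptide clearance receptor, at 31003, 94521, 105970 and 53787 in DIO-HFD and at 28674, 21163, 35987 and 46848 in DIO-LFD (−1.01, SE 0.43). Its groups overlapped, and no gene of the list was lower at an unadjusted limma P below 0.05 once DIO-HFD replicate 2 or 3, or DIO-LFD replicate 1 or 2, was left out.

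Of genes for insulin signalling and glucose use, 26 of 31 were higher, 9 of them with an unadjusted limma P below 0.05 and 0 of the lower ones. Slc2a4, which encodes the insulin-responsive transporter GLUT4, was at 2198, 5447, 5265 and 6089 in DIO-HFD and at 7108, 8621, 6647 and 9413 in DIO-LFD (log2 difference 0.83, SE 0.28). Hexokinase 2, Hk2 (0.91, SE 0.29), and glycogen synthase 1, Gys1 (0.87, SE 0.23), were likewise above the DIO-HFD range in every DIO-LFD library. Without DIO-HFD replicate 1, in which all 3 genes were lowest, 6 of the 31 were higher at such a P value. The 0 lower became 1 without DIO-HFD replicate 1 or 4 or DIO-LFD replicate 3, and 2 without both DIO-HFD replicates 1 and 4.

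Pyruvate entry, the citrate cycle and the respiratory chain differed by smaller amounts in more genes. Pcx, which encodes pyruvate carboxylase, was at 7034, 16805, 24697 and 14478 in DIO-HFD and at 38187, 72346, 36543 and 66009 in DIO-LFD (log2 difference 1.83, SE 0.43, limma unadjusted P = 0.000776). The pyruvate dehydrogenase genes Pdha1 (0.96, SE 0.31), Pdhb (1.08, SE 0.32) and Pdhx (0.73, SE 0.19) also showed no overlap. In all, 20 of 21 citrate cycle and pyruvate genes were higher, 10 with an unadjusted limma P below 0.05. The 10 became 5 without DIO-HFD replicate 1 or DIO-LFD replicate 4 and 6 without DIO-LFD replicate 2. There were 20 with a B cell marker score in the fit and 17 with library weights or with the 8 compared libraries alone. Without DIO-HFD replicates 1 and 4 there were 3.

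Every tested nuclear gene of the respiratory chain was higher in DIO-LFD: 37 of 37 for complex I, with a median log2 difference of 0.44, and 42 of 42 for complexes II to V, with a median of 0.52. An unadjusted limma P below 0.05 was reached by 28 and 30 of them, and the groups were apart for 23 and 24, against backgrounds of 5.37% and 3.01%. Summed over complex I the count was 72090, 95470, 105300 and 88690 in DIO-HFD and 114200, 136000, 116400 and 131800 in DIO-LFD, so even the sums did not overlap. The direction was steadier than the count. Without DIO-HFD replicate 1, in which complex I was lowest, all 37 were still higher but 7 had an unadjusted P below 0.05, and there were 18 without DIO-HFD replicate 4 and 11 and 14 without DIO-LFD replicate 2 or 4. For complexes II to V the count was 15 without DIO-HFD replicate 1 and 18 without DIO-LFD replicate 2, and 40 rather than 24 were apart without DIO-HFD replicate 3. Without both DIO-HFD replicates 1 and 4, an alternative chosen after seeing the data, 36 of 37 and 42 of 42 were higher and 0 and 4 had an unadjusted P below 0.05. Adipocyte marker RNA moved with these genes in DIO-HFD, being lowest in replicate 1 and highest in replicate 3, and its part in the result was not tested.

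Atp5g3, which encodes a c subunit of ATP synthase, was at 5175, 6640, 8760 and 6390 in DIO-HFD and at 8989, 9076, 9223 and 11239 in DIO-LFD (log2 difference 0.53, SE 0.15, limma unadjusted P = 0.00288). Ndufa2, of complex I, was at 1364, 1885, 2003 and 1708 and at 2382, 2355, 2355 and 2588 (0.49, SE 0.14), and Cox8a, of complex IV, was at 4164, 6334, 6867 and 5255 and at 8700, 8652, 8044 and 9014 (0.63, SE 0.19). In all 3 genes the DIO-LFD libraries lay close together and above the obese mice. Sdha, the flavoprotein of complex II, was at 11771, 15979, 16098 and 15636 in DIO-HFD and at 20731, 25263, 19460 and 20646 in DIO-LFD (0.54, SE 0.24).

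**Figure D3:**
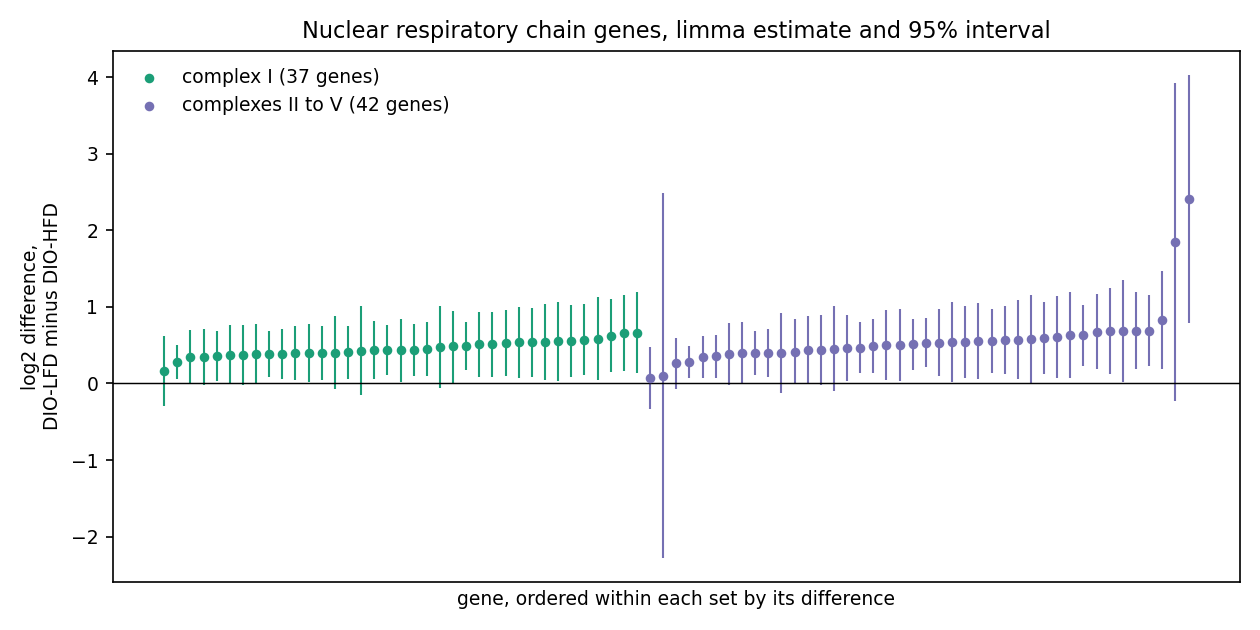
Log2 difference (DIO-LFD minus DIO-HFD, limma estimate with 95% interval) of each tested nuclear gene of complex I (37 genes) and complexes II to V (42 genes), ordered by size within each set. All points lie above 0, and 28 and 30 genes have an unadjusted P below 0.05.

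Since these genes moved together, their promoters (250 bases before to 50 after the start, RefSeq on GRCm38.p6) were searched on both strands for 4 sets of letters. RefSeq promoters were found for 66 of the 79 respiratory chain genes and for 15 of the 15 fatty acid synthesis genes. The element bound by the nuclear respiratory factor NRF1, written as GCGC, any base and then TGCGC, was in 18 of 71 respiratory chain promoters (25.4%) and in 4.6% of all 32851 promoters. TCAAGGTCA, bound by estrogen-related receptors, was in 2 of 71 (2.82%, against 0.423% of all), and the E-box CACGTG in 7 (9.86%, against 7.15%). Among 18 fatty acid synthesis promoters, the NRF1 element was in 3 (16.7%), CACGTG in 1 (5.56%) and the sterol element TCACNCCAC in 0, against 1.24% of all, which says only that these letters are not in these windows. Matches of different elements did not overlap in the promoters printed, and a match is a description of the sequence, not of binding. The promoters of Atp5g3 (chr2:73911277-73911576, minus strand), which holds 3 of the 4 elements, of Sdha (chr13:74350191-74350490, minus strand), which holds the NRF1 element 3 times, and of Fasn (chr11:120824498-120824797, minus strand) are given 5′ to 3′ with the matches in capitals.
Atp5g3: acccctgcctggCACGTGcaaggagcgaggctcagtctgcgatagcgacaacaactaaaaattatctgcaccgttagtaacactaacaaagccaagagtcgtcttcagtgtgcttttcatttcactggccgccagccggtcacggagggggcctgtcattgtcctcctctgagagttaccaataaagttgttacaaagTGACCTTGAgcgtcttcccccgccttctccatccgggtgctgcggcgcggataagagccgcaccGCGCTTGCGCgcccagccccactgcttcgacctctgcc
Sdha: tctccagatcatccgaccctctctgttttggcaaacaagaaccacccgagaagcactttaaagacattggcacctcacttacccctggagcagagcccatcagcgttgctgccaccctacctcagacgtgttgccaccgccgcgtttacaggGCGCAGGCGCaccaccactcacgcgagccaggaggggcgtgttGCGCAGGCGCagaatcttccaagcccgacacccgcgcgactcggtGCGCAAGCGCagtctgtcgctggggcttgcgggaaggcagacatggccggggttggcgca
Fasn: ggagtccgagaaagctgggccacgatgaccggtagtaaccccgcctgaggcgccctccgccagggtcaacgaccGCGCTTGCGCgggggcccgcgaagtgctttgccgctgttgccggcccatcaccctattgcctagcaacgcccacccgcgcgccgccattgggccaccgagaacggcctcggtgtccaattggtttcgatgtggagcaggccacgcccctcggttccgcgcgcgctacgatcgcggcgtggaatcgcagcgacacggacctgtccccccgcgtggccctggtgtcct

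Fatty acid oxidation genes were higher in 26 of 28 cases, with 5 higher and 1 lower at an unadjusted limma P below 0.05, and the count of higher genes was 2 without DIO-HFD replicate 1 and 9 without CON-LFD replicate 2. It was 11 with the 8 compared libraries alone, 22 with a B cell marker score in the fit and 1 without DIO-HFD replicates 1 and 4. Echs1, a mitochondrial enoyl-CoA hydratase, was at 3336, 5644, 6382 and 5922 in DIO-HFD and at 10301, 9466, 7793 and 9517 in DIO-LFD (log2 difference 0.84, SE 0.25). The gene that was lower was Cpt1a, which encodes the liver-type carnitine palmitoyltransferase that admits fatty acids to mitochondria, at 8769, 10596, 9225 and 8346 in DIO-HFD and at 7874, 5926, 7625 and 6840 in DIO-LFD (−0.39, SE 0.11, limma unadjusted P = 0.00377). Cpt1a thus stood apart between groups in the direction opposite to Cpt2 (0.85, SE 0.32), which encodes the partner enzyme of the inner membrane. Of branched-chain amino acid catabolism genes, 24 of 26 were higher and 9 had an unadjusted P below 0.05. The 9 became 4 without DIO-HFD replicate 1, 17 without DIO-HFD replicate 3 and 14 without CON-LFD replicate 3. With a B cell marker score in the fit there were 21, and with library weights 15. The median log2 difference of 0.383 was 0.175 without DIO-HFD replicates 1 and 4. The branched-chain transaminase Bcat2 (0.70, SE 0.20) and isovaleryl-CoA dehydrogenase, Ivd (0.60, SE 0.15), were above every DIO-HFD library in each DIO-LFD library.

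Genes of thermogenic adipocytes, which burn fuel to make heat, were higher in 17 of 20 cases, with a median log2 difference of 1.16, and 3 had an unadjusted limma P below 0.05. The median was 0.71 without DIO-LFD replicate 2 and 0.64 on the deposited values. The 3 genes with such a P became 6 without CON-LFD replicate 2, 7 with a B cell marker score in the fit and 10 with the 8 compared libraries alone. Cidea, a lipid droplet protein of brown and beige fat, was at 43.5, 242, 111 and 209 in DIO-HFD and at 1495, 3432, 861 and 620 in DIO-LFD (3.35, SE 1.10). Ucp1, which encodes the uncoupling protein that defines these cells, was at 4.63, 226, 25.1 and 29.5 in DIO-HFD and at 682, 2098, 873 and 114 in DIO-LFD (4.28, SE 2.03, limma unadjusted P = 0.0529). The Ucp1 groups overlapped, because DIO-LFD replicate 4 was below DIO-HFD replicate 2. The regulators Ppargc1a (0.44, SE 0.35) and Prdm16 (0.46, SE 0.37) overlapped as well. Cox8b, the muscle and brown fat form of a complex IV subunit, was at 97.2 to 327 in DIO-HFD and at 328, 1920, 1395 and 1213 in DIO-LFD (2.41, SE 0.76). Its lowest DIO-LFD value was thus barely above the highest of the obese mice. Muscle, which also makes Cox8b, gave the most RNA in DIO-LFD replicate 4, and its part in this difference was not tested.

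Adipocyte markers were higher in 18 of 20 cases with a median log2 difference of 0.44, but 12 were higher and 8 lower, with a median of 0.11, without DIO-HFD replicate 1. Adipoq (0.17, SE 0.31), Fabp4 (0.28, SE 0.36) and the lipid droplet coat gene Plin1 (0.45, SE 0.31) overlapped between groups. Among adipokines the 2 directions were equal, 11 higher and 11 lower, with 4 of each at an unadjusted limma P below 0.05. The count of higher ones was 2 without DIO-HFD replicate 1 and 1 without DIO-LFD replicate 2, and that of lower ones was 8 without DIO-LFD replicate 1. Lep, which encodes leptin, was at 37881, 103690, 237530 and 49364 in DIO-HFD and at 104470, 25285, 25136 and 46975 in DIO-LFD. The leptin groups overlapped, with DIO-LFD replicate 1 the high library of its group, and the log2 difference was −0.97 (SE 0.61, limma unadjusted P = 0.134). Rbp4, which encodes the retinol-binding adipokine, was at 2048 to 5443 and at 5977, 8462, 5861 and 16160 (1.24, SE 0.39), without overlap. Apln, which encodes apelin, was at 736, 1075, 1659 and 438 in DIO-HFD and at 169, 195, 138 and 612 in DIO-LFD (−1.92, SE 0.50), and Sfrp5, which encodes a secreted Wnt antagonist, was at 6451, 32429, 26091 and 8226 and at 11401, 1069, 2855 and 1420 (−2.46, SE 0.78). In both genes a single DIO-LFD library reached the obese range, replicate 4 for Apln and replicate 1 for Sfrp5.

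The naming rule chose 15 genes that were lower in DIO-LFD. Cacna1e, which encodes the pore subunit of an R-type calcium channel (chr1:154390731-154884501, minus strand), was at 5155, 15847, 10736 and 4896 in DIO-HFD and at 1929, 1336, 1856 and 1453 in DIO-LFD. The DIO-LFD values were tight and all below the obese range, and the log2 difference was −2.32 (SE 0.39, 95% interval −3.16 to −1.47, limma adjusted P = 0.296). Bmp3, which encodes a ligand of the TGF-beta family (chr5:98854415-98884396, plus strand), was at 5489, 26014, 21545 and 9149 in DIO-HFD and at 4566, 2938, 4129 and 4328 in DIO-LFD (−1.72, SE 0.42, limma adjusted P = 0.318). Gabrr2, which encodes a GABA receptor subunit (chr4:33062999-33095865, plus strand), was at 298, 962, 2284 and 522 and at 162, 88.3, 54.3 and 88.9 (−3.06, SE 0.53, limma adjusted P = 0.296). For all 3 genes, DIO-HFD replicates 2 and 3 were the high libraries, which were also the obese libraries with the most adipocyte and the least lymphoid RNA. Leaving out DIO-HFD replicates 1 and 4, an alternative chosen after seeing the data, removed the lowest obese values of all 3 genes. They were then among 8 that passed (limma adjusted P = 0.0171 for Cacna1e and 0.0153 for Gabrr2 and Bmp3), and these P values are not read. With library weights the limma adjusted P was 0.00332 for Cacna1e, 0.00227 for Gabrr2 and 0.0125 for Bmp3. Over all alternatives their adjusted P reached 0.754.

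Glcci1, Maml2 and Iqgap2 varied little within the groups. Glcci1, a glucocorticoid-induced gene, was at 2491, 2666, 2433 and 2089 in DIO-HFD and at 1154, 1314, 1521 and 1401 in DIO-LFD (−0.85, SE 0.19). Maml2, which encodes a coactivator of Notch, was at 3413, 3794, 3415 and 3417 and at 2822, 2484, 2859 and 2305 (−0.43, SE 0.10), and Iqgap2, which encodes a scaffold protein, was at 3559, 3117, 3552 and 2638 and at 1755, 1664, 2213 and 1968 (−0.76, SE 0.19). In each of the 3 the groups were apart. Ehd3, which encodes a protein of endosome traffic, varied more in DIO-HFD, from 3092 to 7072 (−1.35, SE 0.27), and so did the actin-binding Synpo2, from 22574 to 57473 (−1.50, SE 0.34). The adhesion adaptor Tns3 had a log2 difference of −0.71 (SE 0.17). Slc40a1, which encodes the iron exporter ferroportin, was at 1554, 1837, 2209 and 1502 in DIO-HFD and at 1010, 412, 1158 and 893 in DIO-LFD (−1.11, SE 0.28). The remaining genes chosen by the rule for lower values, Adamts10, Pgm2l1, Wscd1, Cys1 and Mycbp2, had log2 differences between −1.30 and −0.39.

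**Figure D4:**
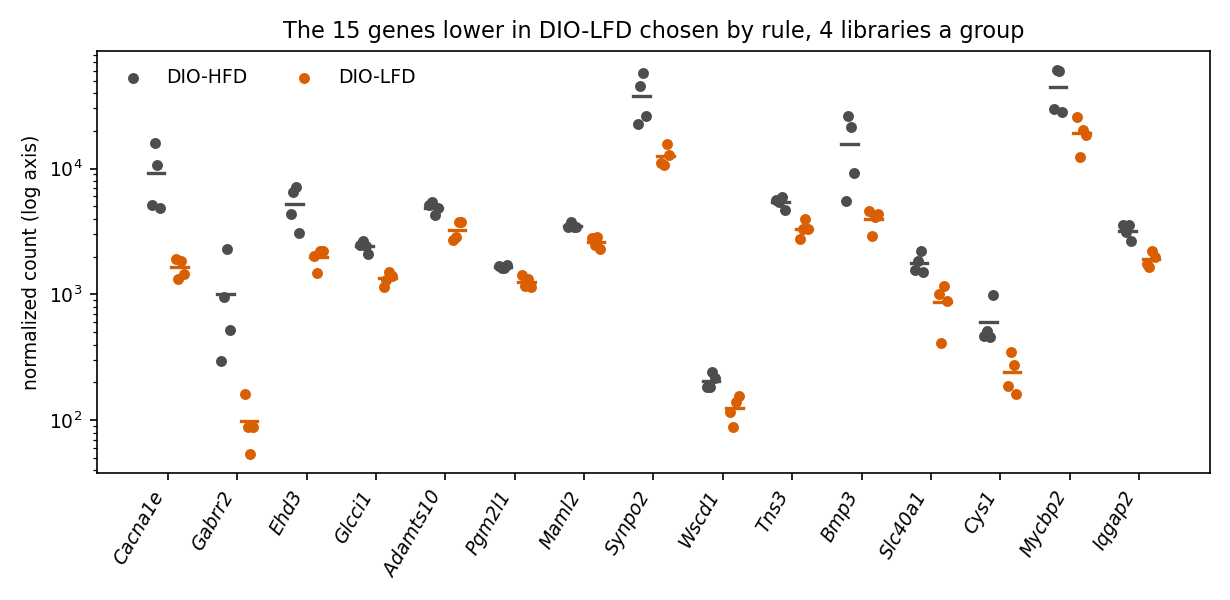
Normalized count (log axis) of the 15 genes lower in DIO-LFD that the naming rule chose, in the 4 DIO-HFD and 4 DIO-LFD libraries. The rule required that the groups do not overlap, so the separation is by choice. The DIO-HFD values spread widely for Gabrr2, from 298 to 2284, and narrowly for Pgm2l1, from 1610 to 1728.

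Of the 15 genes named as higher by the same rule, several were outside the lists above. Gclc, the catalytic subunit that limits glutathione synthesis (chr9:77754535-77794485, plus strand), was at 2907, 2647, 2712 and 2597 in DIO-HFD and at 6427, 5183, 4723 and 4560 in DIO-LFD (log2 difference 0.93, SE 0.18, limma adjusted P = 0.296). Its values were close within each group. Acat2, which encodes cytosolic acetoacetyl-CoA thiolase, had a log2 difference of 1.52 (SE 0.31). Of 25 cholesterol synthesis and handling genes 14 were higher and 11 lower, with a median log2 difference of 0.07. At an unadjusted limma P below 0.05, 2 were higher and 1 lower, near the 5.37% and 3.16% of all genes. The 2 became 4 without DIO-LFD replicate 1, 9 with library weights and 1 without any of DIO-HFD replicates 1 and 4, DIO-LFD replicates 2 to 4, CON-LFD replicate 2 and DIO-VSG replicates 2 and 3. P2rx5, which encodes an ATP-gated channel found on brown fat cells, was at 72.2, 66.4, 120 and 111 in DIO-HFD and at 330, 346, 245 and 323 in DIO-LFD (1.77, SE 0.34). Alb, which encodes albumin, was at 444, 1238, 1246 and 848 and at 3398, 2534, 1835 and 3749 (1.67, SE 0.34). Further genes were Rbm47 (0.72), Syngr1 (1.16), Uck1 (1.03), Rprml (3.18) and Apoc3 (2.96), of which Apoc3, an apolipoprotein gene, was at 3.28 to 12 in DIO-HFD and at 202, 53.6, 28.6 and 29.6 in DIO-LFD.

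Major urinary protein (Mup) genes encode small lipid-binding proteins best known from liver and urine. The genes are near-identical copies, and the division of reads among them is uncertain. Members at or near 0 in DIO-HFD passed the filter on low counts only through groups in which they were high, so that a count of higher members is no measure of the list. With all 16 libraries 10 members were tested, 7 of them with an unadjusted limma P below 0.05, and with the 8 compared libraries alone 4 were tested and 3 had one. Their summed count was 39.8, 423, 69.9 and 138 in DIO-HFD and 300, 6388, 1845 and 5140 in DIO-LFD. The sums overlapped through DIO-LFD replicate 1, the library that was also low for Fasn. Mup11 was at 0, 3.32, 0 and 3.28 in DIO-HFD and at 7.64, 393, 105 and 186 in DIO-LFD, and Mup3 was at 7.40, 13.3, 19.6 and 4.92 and at 95, 154, 30.5 and 247. Of the 8 compared libraries 3 held 10 or more counts of Mup11, so this gene entered the test through the lean and the surgery groups, and its P is not read.

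Mammary epithelial markers were higher in 13 of 19 cases, 9 of them with an unadjusted limma P below 0.05 and 1 lower. Their summed count was 67110, 130900, 93930 and 88330 in DIO-HFD and 87770, 221500, 139900 and 167200 in DIO-LFD. The luminal keratin Krt7 (chr15:101411043-101430313, plus strand) was at 1514, 3513, 2336 and 2436 and at 4003, 7972, 5025 and 6582 (log2 difference 1.28, SE 0.28), and Krt18 was at 5269 to 10686 and at 10500, 26110, 16093 and 20465 (1.25, SE 0.29). Prlr, which encodes the prolactin receptor, was at 7188, 18775, 13923 and 11530 and at 23071, 59882, 29930 and 35527 (1.52, SE 0.36). Thus the groups were apart for Krt7 and Prlr and nearly so for Krt18. The basal keratins Krt5 (−0.32, SE 0.53) and Krt14 (−0.38, SE 0.42) overlapped between groups, and Acta2, which encodes the smooth muscle actin of myoepithelial and vascular cells, had a log2 difference of −0.72 (SE 0.29, limma unadjusted P = 0.0271). The groups overlapped for Acta2, and the 1 lower member of the list became 2 without DIO-HFD replicate 3 and 0 without DIO-HFD replicate 2 or DIO-LFD replicate 1. DIO-HFD replicate 1 was lowest and DIO-LFD replicate 2 highest for Krt7, Krt18 and Prlr, and without either of them 6 and 5 of the 19 had an unadjusted P below 0.05.

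Cell cycle genes were lower in all 32 tested cases, with a median log2 difference of −1.0, and 12 had an unadjusted limma P below 0.05. Their summed count was 49080, 24260, 53490 and 30460 in DIO-HFD and 20390, 34080, 17850 and 19250 in DIO-LFD, so the groups overlapped, with DIO-LFD replicate 2 above DIO-HFD replicates 2 and 4. Top2a, a topoisomerase of dividing cells, was at 4003, 1765, 6526 and 1929 in DIO-HFD and at 1126, 3297, 738 and 992 in DIO-LFD (−1.26, SE 0.55). The count of 12 was 0 without DIO-HFD replicate 3, 2 without DIO-HFD replicate 1 or DIO-LFD replicate 3, 3 without DIO-LFD replicate 1 or 4, 22 without DIO-HFD replicate 2 or CON-LFD replicate 1 and 26 without DIO-LFD replicate 2, and all 32 were lower in each of these fits. The median of −1.0 was −0.65 without DIO-HFD replicate 3 and −0.80 without DIO-LFD replicate 3. Of the DIO-HFD libraries, replicate 1 held the most and replicate 3 the least lymphoid RNA, and with a B cell marker score in the fit 20 of the 32 were lower at an unadjusted P below 0.05 (median −1.05). With a skeletal muscle marker score instead 4 were.

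Inflammatory and matrix lists were set beside the 3.16% of all genes that were lower at an unadjusted limma P below 0.05. Of 37 cytokines and chemokines 1 had an unadjusted limma P below 0.05, the eosinophil chemoattractant Ccl11 (−0.90, SE 0.37), and of 31 NF-kB and AP-1 genes 0 did. The 1 lower chemokine gene became 0 without DIO-HFD replicate 2 or DIO-LFD replicate 2, and 2 without DIO-HFD replicate 3, DIO-LFD replicate 1 or DIO-VSG replicate 2. Lipid-associated macrophage markers were higher in 10 cases and lower in 12, with 5 of the 22 lower at an unadjusted P below 0.05, a larger share than the background: Itgad, Dcstamp, Mmp12, Itgax and Atp6v0d2. There were 3 without DIO-HFD replicate 3 or DIO-LFD replicate 2. Itgad, which encodes an integrin of tissue macrophages, was at 153, 685, 3424 and 117 in DIO-HFD and at 96.1, 10.9, 20.0 and 33.7 in DIO-LFD (−3.91, SE 1.08). Dcstamp, which encodes a protein of macrophage fusion, was at 18.5, 60.9, 62.2 and 27.9 and at 1.09, 4.96, 12.4 and 17.4 (−2.37, SE 0.67). The groups did not overlap for these 2 genes. They did overlap for the general macrophage marker Cd68 (−0.37, SE 0.44) and for Trem2 (−0.95, SE 0.58), a gene that defines the list. Collagens were lower in 21 of 29 cases with 1 at an unadjusted P below 0.05, between 0 and 2 when 1 library was left out, and matricellular proteins and proteoglycans were lower in 26 of 29 with 5, also a larger share than the background. Bgn, which encodes biglycan, was at 21748, 33055, 26675 and 29521 in DIO-HFD and at 25729, 12169, 14477 and 15690 in DIO-LFD (−0.75, SE 0.24), so the groups overlapped for Bgn through DIO-LFD replicate 1. In that library the summed count of the matricellular list was 349600, within the 262700 to 425400 of the other 3 DIO-LFD libraries, whereas the summed collagen count was 232000 there and 271500 to 601800 in the other 3, and the summed stromal progenitor markers were at 50050 and at 63900 to 119700. Without it the matricellular median moved from −0.57 to −0.23 and that of the collagens from −0.40 to −0.02.

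**Figure D5:**
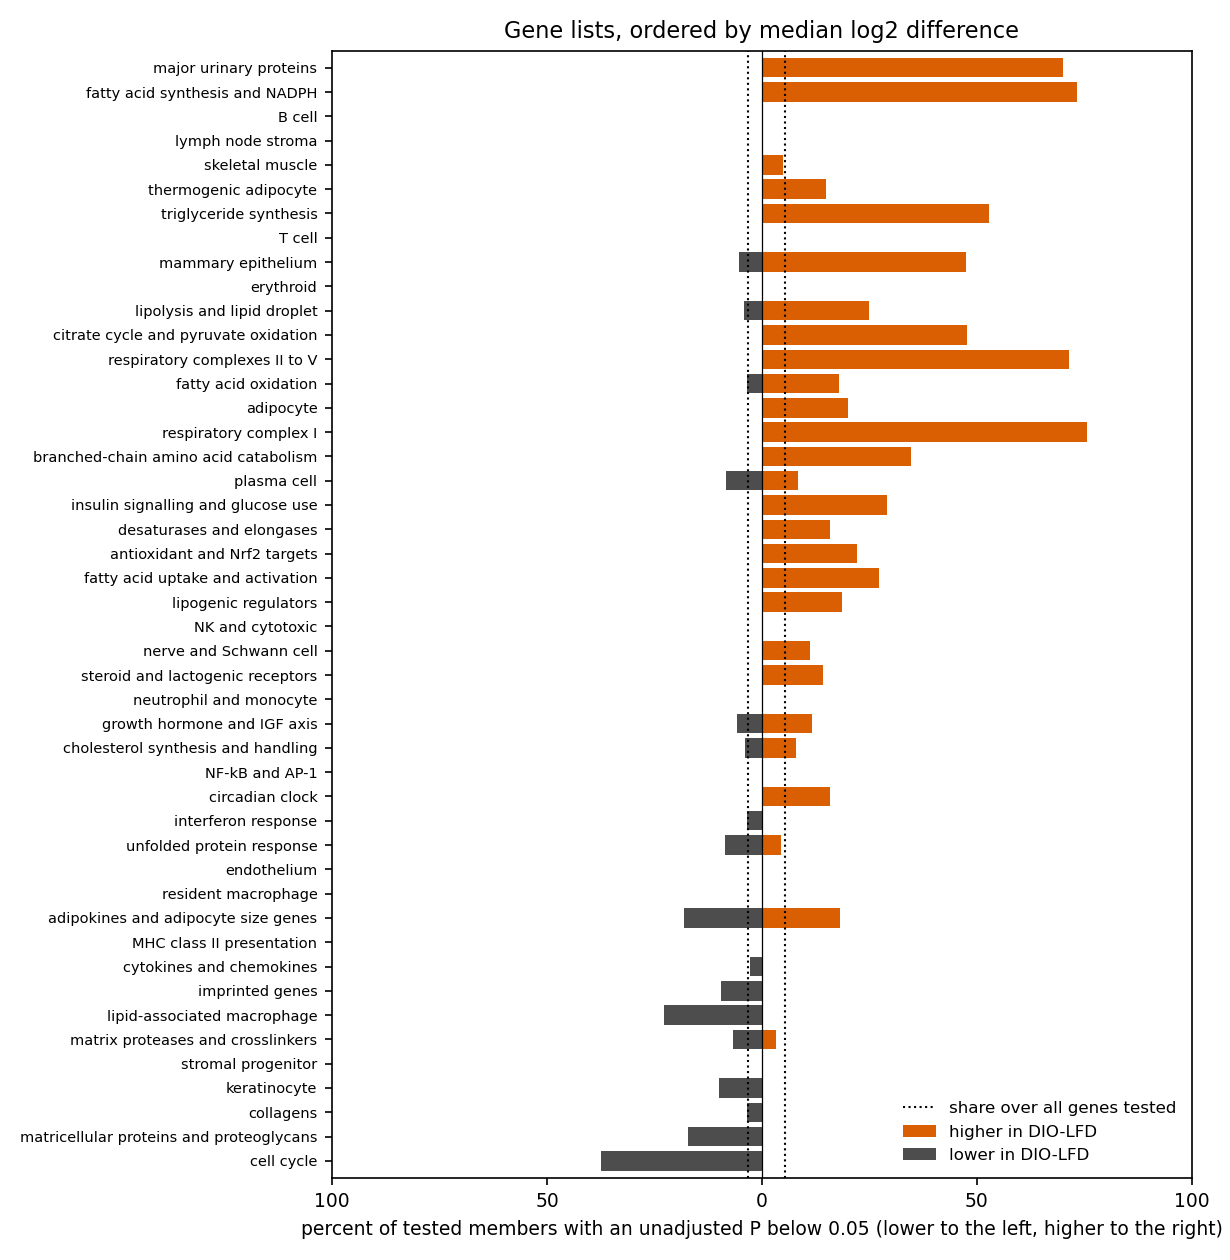
Percent of the tested members of each gene list with an unadjusted limma P below 0.05, lower in DIO-LFD to the left and higher to the right, ordered by the median log2 difference. The dotted lines give the shares over all genes tested, 3.16% lower and 5.37% higher. Fatty acid synthesis (11 of 15 higher) and the respiratory chain (28 of 37 and 30 of 42) reach far to the right, and the cell cycle (12 of 32) furthest left. The bar of the Mup genes is not to be read, since members low in DIO-HFD entered it only through groups in which they were high.

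The T cell, B cell and lymph node stroma lists had higher medians in DIO-LFD (0.81, 1.39 and 1.36), but 0 of their 24, 22 and 10 tested members had an unadjusted P below 0.05 in limma. DIO-HFD held both the highest and the lowest libraries for these lists, and without DIO-HFD replicate 3 the medians were −0.13, 0.16 and 0.09, while without DIO-HFD replicate 1 they were 1.74, 2.41 and 2.53. Without DIO-HFD replicates 1 and 4, the libraries with the most lymphoid RNA, 23, 17 and 8 members were higher at such a P. Skeletal muscle markers (median 1.34) had 1 such member of 20, near the 5.37% of all genes, and their median was 0.26 without DIO-LFD replicate 4.

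Set beside surgical weight loss in the same fit, dietary weight loss differed in 0 of 21218 genes after adjustment (limma, smallest adjusted P = 0.427), and 2061 genes had an unadjusted P below 0.05, 1148 higher and 913 lower in DIO-LFD. The libraries did not overlap in 1236 genes that were higher and 2746 that were lower in DIO-LFD. Lymphoid lists had negative medians in this contrast (T cell −1.42, B cell −1.19, lymph node stroma −1.22). Their members were not counted by P here, so these medians are descriptive only. The summed lymph node stroma markers were at 20700 to 30550 in DIO-LFD and at 50370 to 62400 in DIO-VSG. Within CON-LFD the T cell sum ranged from 2626 to 71850. The part of the amount of lymph node in each piece of tissue was not tested. The log2 difference DIO-LFD minus DIO-VSG was 0.09 for Acaca, −0.36 for Fasn, 0.25 for Srebf1, −0.56 for Cacna1e and −0.09 for Bmp3, with limma adjusted P between 0.565 and 0.952. These P values do not show that the interventions acted alike. Against the lean controls, 1 gene passed in DIO-LFD, the pseudogene Gm15725 (limma adjusted P = 0.0213), with 1328 at an unadjusted P below 0.05. For Acaca the difference from CON-LFD was 0.74 and for Cacna1e 0.41 (limma adjusted P = 0.873 and 0.886).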

How the data were processed

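Total RNA libraries (Illumina TruSeq Stranded) were sequenced by the authors from the mammary fat pad opposite the tumor. Their methods name STAR with salmon and a Gencode annotation on GRCm38, while the submitters' processing notes name TopHat2 2.0.7, HTSeq 0.5.3p9, DESeq2 and mm10, and which of these made the table was not settled. Genes totalling under 10 counts had been dropped by the authors. The values the authors deposited, for 23179 genes, were log2 values from 5.36 to 21.85, the result of a variance-stabilizing transformation with DESeq2, and not the normalized counts their file was named for. The transformation was inverted to normalized counts, and multiplying by the size factors gave whole reads (within 0.1) for 100.0% of values.

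Groups and replicate numbers came from the sample titles. The sample descriptions give each library a number of its own, without saying what it numbers, so P values measure the spread between these samples. A gene was tested if 4 or more libraries held 10 or more normalized counts of it, which left 21218. limma's trended empirical Bayes test (limma 3.58.1, R 4.3.3) was run two-sided on the log2 of the normalized count plus a pseudocount of 1, all 16 libraries being fitted together with 1 mean a group, with Benjamini-Hochberg adjustment over these genes. This scale understates changes of low genes. The members and gene lists were chosen with earlier results of these data known. The 15 genes with the smallest P in each direction were named, leaving out predicted genes, pseudogenes, genes with a mean under 50 in both groups and genes whose groups overlap. A gene chosen by this rule is not reported here. From each list, up to 4 members with the smallest P and members that define it were named. Gene positions came from GENCODE M21 on GRCm38, where 22176 symbols (95.7%) were found once. The test was also run on simulated data, and its outcome there is not given here. The alternatives concerned scale, pseudocount, filter, normalization, samples in the fit, weights, test, block, covariates and libraries left out.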

Additional observations from a re-analysis of the deposited data

Results flagged for a closer look

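In groups of 4 libraries, the gap between the highest or lowest library and its nearest neighbour was divided by the range of the group. Among the 152 groups looked at this way (each named gene and each summed list in DIO-HFD and in DIO-LFD), 12 exceeded Dixon's 95% critical value for 4 values, and chance gives about 1 in 20. In DIO-LFD the highest library stood apart for Apoc3 (ratio 0.856, replicate 1), the lipid-associated macrophage sum (0.837, replicate 4), the skeletal muscle sum (0.99, replicate 4), the endothelium sum (0.867, replicate 1), the erythroid sum (0.945, replicate 1), the cell cycle sum (0.843, replicate 2), the sum of lipolysis and lipid droplet genes (0.861, replicate 1), the sum of adipokines and adipocyte size genes (0.895, replicate 1) and the thermogenic adipocyte sum (0.904, replicate 2). In DIO-HFD it stood apart for Maml2 (0.989, replicate 2), Cys1 (0.894, replicate 4) and the keratinocyte sum (0.965, replicate 4). Cys1 was at 465, 511, 455 and 987 in DIO-HFD and at 187, 348, 277 and 161 in DIO-LFD, and its highest value came from the library with the most keratinocyte RNA. Maml2 was at 3794 in DIO-HFD replicate 2 and at 3413 to 3417 in the other 3, so its ratio reflects 3 values that lay close together.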

How the results depend on the processing

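The 30 named genes kept their direction in 988 of 988 values over 33 alternatives, 16 of which left out 1 library, which the naming rule largely fixed by requiring groups that do not overlap. Library weights, estimated from the same values, gave 1811 genes with an adjusted P below 0.05 in limma and 5596 unadjusted (3232 higher, 2364 lower). The B cell score as a covariate gave 0 adjusted and 3397 unadjusted (2019 and 1378). Leaving out 1 library gave 0 to 1 adjusted and 1259 to 1950 unadjusted genes, with 722 to 1414 higher and 504 to 848 lower, and 637 to 1257 and 316 to 814 whose groups were apart above and below. The adjusted gene was Mup11, without DIO-LFD replicate 1, a gene with 10 or more counts in 3 of the 8 compared libraries that entered the test through the other groups, so its call is not read. Unadjusted calls were 1708 without DIO-HFD replicate 1 (860 higher), 1918 without DIO-HFD replicate 3 (504 lower) and 1259 without DIO-LFD replicate 2 (722 higher). Of alternatives chosen after seeing the data, leaving out both libraries numbered 1 gave 1 adjusted gene, again Mup11 with that limit, and 2133 unadjusted (969 higher, 1164 lower), with 1583 and 1561 apart. Leaving out DIO-HFD replicates 1 and 4 gave 8 adjusted and 3539 unadjusted (1971 and 1568), with 3713 and 2334 apart, partly because fewer libraries overlap less. The other causes were not tested. With the replicate number as a block, 0 genes passed adjustment and 1666 were unadjusted, but the numbers do not pair the samples: same-numbered deviations correlated at −0.20, −0.01, −0.25 and 0.13. Scale, pseudocount, filter, normalization, voom, robust fitting, the muscle covariate, the 8 libraries alone and dropping predicted genes gave 0 adjusted genes and 1410 to 1915 unadjusted. At this depth, genes under the filter of 10 normalized counts were not tested.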

Other observations

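Antioxidant genes and targets of the factor Nrf2 were higher in 22 of 27 cases, 6 of them with an unadjusted limma P below 0.05, or 10 without DIO-HFD replicate 3. Besides Gclc these included Sod1, which encodes the cytosolic superoxide dismutase, at 8278, 12995, 11948 and 11233 normalized counts in DIO-HFD and at 16586, 16118, 14419 and 14854 in DIO-LFD (log2 difference 0.50, SE 0.15). Prdx3, which encodes a mitochondrial peroxidase, was at 2726 to 4317 and at 4351 to 6651 (0.65, SE 0.19), with the groups apart. Gpx3, which encodes the secreted glutathione peroxidase, was at 29284, 52726, 8942 and 25497 and at 49181, 65892, 84027 and 59314 (1.38, SE 0.56), with overlap through DIO-LFD replicate 1.

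Of 17 genes of the growth hormone and IGF axis 2 were higher and 1 lower at an unadjusted limma P below 0.05, and the 2 were between 0 and 2 when 1 library was left out. The 1 was 0 without DIO-HFD replicate 2 or DIO-LFD replicate 3. Of 14 steroid and lactogenic receptors 2 were higher, and 2 or 3 when 1 library was left out. Over all genes 5.37% were higher and 3.16% lower at such a P, so these small counts are not read as results about the lists. Hsd11b1, which regenerates active glucocorticoid, was at 1795, 2964, 2184 and 1922 in DIO-HFD and at 18169, 6855, 2718 and 5026 in DIO-LFD (log2 difference 1.56, SE 0.43), overlapping through DIO-LFD replicate 3. Igfbp2, which encodes a binding protein of insulin-like growth factors, was at 216 to 347 and at 43.8 to 161 (−1.42, SE 0.55), without overlap. Stat5a, which encodes the factor that relays prolactin and growth hormone signals, was at 3777 to 4368 in DIO-HFD and at 2964, 10091, 6427 and 6811 in DIO-LFD (0.58, SE 0.27), so DIO-LFD replicate 1 was below and the other 3 libraries were above the obese range. The imprinted gene Peg10 was at 1020, 12896, 10106 and 1056 in DIO-HFD and at 1185, 224, 476 and 771 in DIO-LFD (−2.62, SE 0.80). Its high values were in DIO-HFD replicates 2 and 3, the same libraries that were high for Cacna1e and Bmp3. Of 21 imprinted genes 2 were lower at an unadjusted limma P below 0.05, against 3.16% of all genes. The 2 were between 1 and 5 when 1 library was left out.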
